A study of Mus musculus with 4 samples.

Results

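The deposited lists of circular RNAs (circRNAs) from mouse lung give each circRNA a type, and those typed as lying in an intergenic region carry no host gene. Of 13499 distinct circRNAs over the 4 libraries, 489 were of this type and form the group described here, after 2 were set aside by the selection rule. They were chosen by the deposited type alone, not by any measured value. The libraries were made from total RNA of lung tissue of C57BL/6 mice, with 1 library each for the pseudoglandular stage (embryonic day 14.5), the canalicular stage (embryonic day 16.5), the terminal sac stage (embryonic day 18.5) and the alveolar stage (newborn day 7.5). The labels give no genotype change, treatment or number of animals per library. Since each stage has 1 library, nothing was replicated, no p-value is given and every comparison below sets library against library. The 95% intervals allow for the counting of reads alone, and PCR copies make them too narrow.

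A circRNA forms when the spliceosome joins the end of a downstream exon to the start of an upstream exon, and sequencing detects it by reads across that back-splice junction. Callers look for reads whose parts align in reversed order, so sequences that occur in several near-identical copies, such as tandem gene families and pseudogenes, are a known source of doubt in where such parts belong. The sources used here do not name the annotation behind the deposited types, so the type alone does not say that no gene is there. The ends were therefore placed on the GENCODE M21 annotation, which uses the same build (GRCm38, also called mm10).

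The junction letters of the abundant members are shown first, because they show what was joined and what else has the same letters. Each line gives 30 bases, 5′ to 3′, taken from GENCODE M21 transcripts, with the donor side in lower case and the acceptor side in capitals. Beside some junctions stands the linear exon-exon junction of an end gene that starts or ends at the same exon. Exon sequence was printed from coding exons or from exons of non-coding transcripts.
Gm13767 to Ptprj, chr2:90381221-90444539, minus strand: gtggagcagggaaggACCAAATGTGAGGAG
Zfp60 to Gm10046, chr7:27740957-27770631, plus strand: acctggtcacagtggTGGGACGTTGCATTC
Zfp60, linear: acctggtcgcagtggTGGGACGTTGCATTC
Trbc1 to Trbc2, chr6:41539114-41547104, plus strand: cctggggccgagcagACTGTGGGATTACCT
Trbc2, linear: cctggggccgagcagACTGTGGAATCACTT
Gstm2 to Gstm4, chr3:107986034-108043959, minus strand: acaccatgggggacgCTCCTGACTATGACC
Gstm4, linear: acaccatgggagacgCTCCTGACTATGACC
Gstm3 to Gstm1, chr3:107966087-108012778, minus strand: ctggcccgcttcgagGGCCTCAAGAAGATC
Krt6b to Krt6a, chr15:101676864-101690702, minus strand: gaccagtcaacatctCTGTGGTGCAGTCCA
A230057D06Rik to A330076H08Rik, chr7:61925311-61931493, minus strand: ccacattcagctgagTATTGTGCCTTTAGC
A230057D06Rik, linear: ccacattcagctgagATCCAAGAGTCTTGA
A230057D06Rik alone, chr7:61813262-61925420, minus strand: ctggatacaaagattAGTCTTGCTGTCCTA
A230057D06Rik, linear from the same donor: ctggatacaaagattGTCAGTCCTTTGCAA
In the junction of Gm13767 with Ptprj all 30 letters also stand in linear transcripts of both genes. The same holds for Gstm3 with Gstm1 and for Krt6b with Krt6a. The Trbc1 and Trbc2 junction equals the linear junction of Trbc1 and differs from that of Trbc2 by 3 mismatches, and the Gstm2 and Gstm4 junction equals that of Gstm2 and differs from that of Gstm4 by 1. The Zfp60 junction differs from the linear Zfp60 junction by 1 mismatch. In contrast, the junctions at A230057D06Rik differ from the linear ones of the same donor by 11 and 9 mismatches, and their letters were found in no annotated linear transcript.

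Intergenic circRNAs were a small part of each list. The pseudoglandular library listed 137 of them among 4599 circRNAs (2.98%), the canalicular 139 of 4947 (2.81%), the terminal sac 185 of 5564 (3.32%) and the alveolar 127 of 4474 (2.84%). In order of stage their junction reads made up 2.46% (2.27 to 2.65) of 25983 listed reads, 2.35% (2.18 to 2.52) of 31218, 1.93% (1.79 to 2.08) of 36156 and 1.78% (1.63 to 1.94) of 28332. By listed reads the share was thus lower in the 2 later libraries, while the share of listed circRNAs had its highest value in the terminal sac library. The terminal sac share of reads was 0.822 (0.740 to 0.913) of the canalicular one. This direction turned with the choice of scale, to 1.27 when libraries were scaled by the non-junction reads (reads aligned linearly at the ends) of circRNAs listed in all 4, and the ratio was 0.989 (0.873 to 1.12) without members whose junction letters occur in linear transcripts. In all 4 libraries the median member had 3 reads, and between 44.6% and 48.1% of the members had 2, the smallest count that the files list. As a check of the tissue, 11 of 18 alveolar epithelial genes hosted circRNAs, with 9, 39, 497 and 820 junction reads in order of stage.

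Most members touched an annotated gene. In 167 of 489 (34.2%) the ends lay in different genes, in 123 (25.2%) 1 end lay in a gene, in 97 (19.8%) both ends lay in 1 gene, and in 102 (20.9%) neither end did. The members with ends in different genes held 1267 of 2575 junction reads (49.2%), against 495 for those with 1 end in a gene, 428 for those inside 1 gene and 385 for those outside genes. A back-splice between annotated exon boundaries was seen at both ends of 113 members joining different genes and 52 inside 1 gene. That is 33.7% of all members, against 88.0% of circRNAs typed as exon. Against the RefSeq genes of the same build, 138 members had both ends in 1 gene, among them 26 of the 102 that GENCODE placed outside genes.

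**Figure D1:**
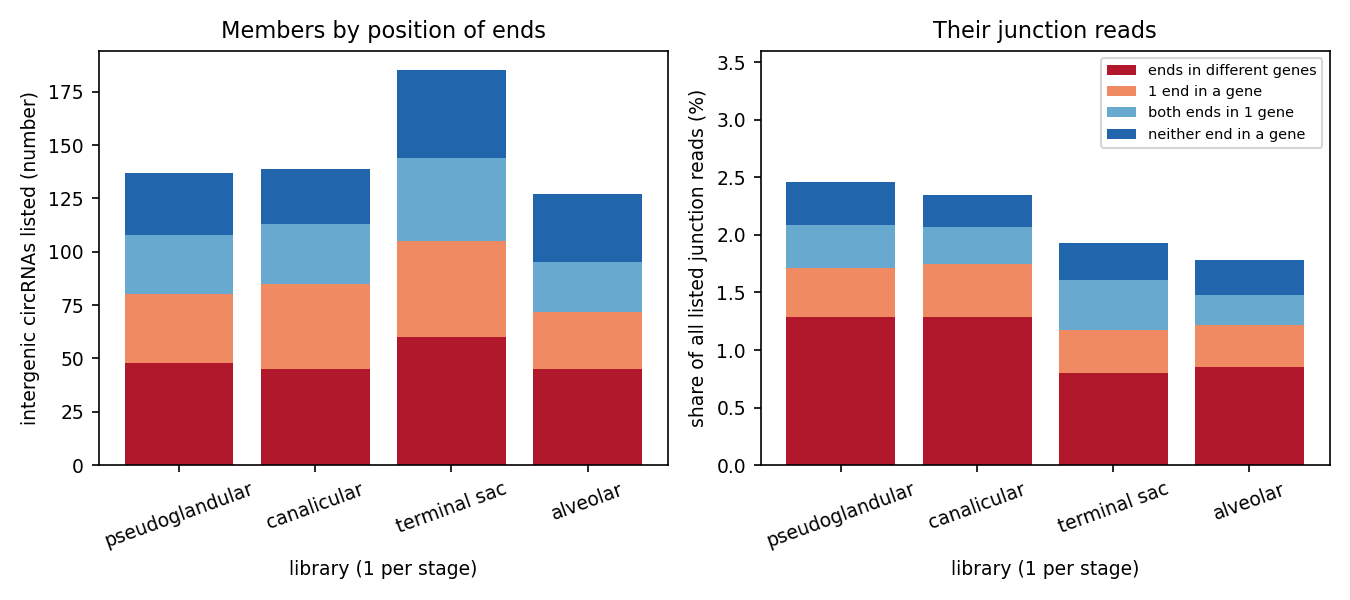
Intergenic circRNAs in each library, as a number (left) and as a share of all listed junction reads (right), stacked by where the ends lie. Members with ends in different genes gave 1.29% of listed reads in each of the first 2 libraries, 0.797% at the terminal sac stage and 0.851% at the alveolar stage.

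Members with ends in different genes took 335, 403, 288 and 241 reads in order of stage. As a share of listed reads the terminal sac library stood at 0.617 (0.529 to 0.720) of the canalicular one. This ratio was 0.955 when libraries were scaled by the non-junction reads of circRNAs listed in all 4, and 0.807 (0.638 to 1.02) without the members whose letters are found in linear transcripts. The alveolar share was 0.660 (0.557 to 0.781) of the pseudoglandular one, and 0.794 (0.619 to 1.02) without those members. Letters were sought without mismatch, so the members left still included Zfp60 with Gm10046, at 1 mismatch from the linear Zfp60 junction. It had 33, 32, 8 and 21 reads in order of stage. Members inside 1 gene had 98, 101, 156 and 73 reads in order of stage. Their share in the terminal sac library was 1.33 (1.03 to 1.73) times that in the canalicular library, and between 1.27 and 2.06 times under the other scalings. In the alveolar library it was 0.597 (0.446 to 0.793) of that in the terminal sac library, and between 0.443 and 0.678 under the other scalings. Against the pseudoglandular library the alveolar share was 0.683 (0.498 to 0.934), and closer to 1, between 0.768 and 0.838, under the other scalings. That the interval excludes 1 thus rests on scaling by listed reads. Members outside genes had 96, 86, 117 and 86 reads, and with scaling by listed reads every interval for their ratio between compared libraries included 1. With non-junction reads of circRNAs listed in all 4, the ratio of terminal sac to canalicular went from 1.17 to 1.82. That of alveolar to terminal sac went from 0.938 to 0.696. Intervals were computed for scaling by listed reads alone.

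Intergenic circRNAs covered long stretches of the genome. Their median span was 23211 bases (quartiles 5663 and 68569), with a range from 214 to 461283, against a median of 10223 for exon circRNAs and 5146 for intron circRNAs. The length followed the position of the ends, at a median of 71771 bases between different genes, 22634 with 1 end in a gene, 11854 within 1 gene and 4215 outside genes. Spans over 100 kb occurred in 85 members (17.4%), against 2.26% of exon and 4.31% of intron circRNAs. Among members with 5 or more reads, the longest joined Gm7609 to Sp100, which encodes a nuclear body protein, over 457723 bases. Its junction letters also occur in linear Sp100 transcripts. Next were Ambra1 with Phf21a (447976 bases, 5 terminal sac reads) and Pltp, the phospholipid transfer protein, with Elmo2 (446127 bases, 5 alveolar reads). The shortest were 214 bases between Slc26a3 and Cbll1, 325 bases on chromosome 10 at 68958 bases from the nearest gene, and 328 bases at Tmeff1, each with 5 pseudoglandular reads.

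**Figure D2:**
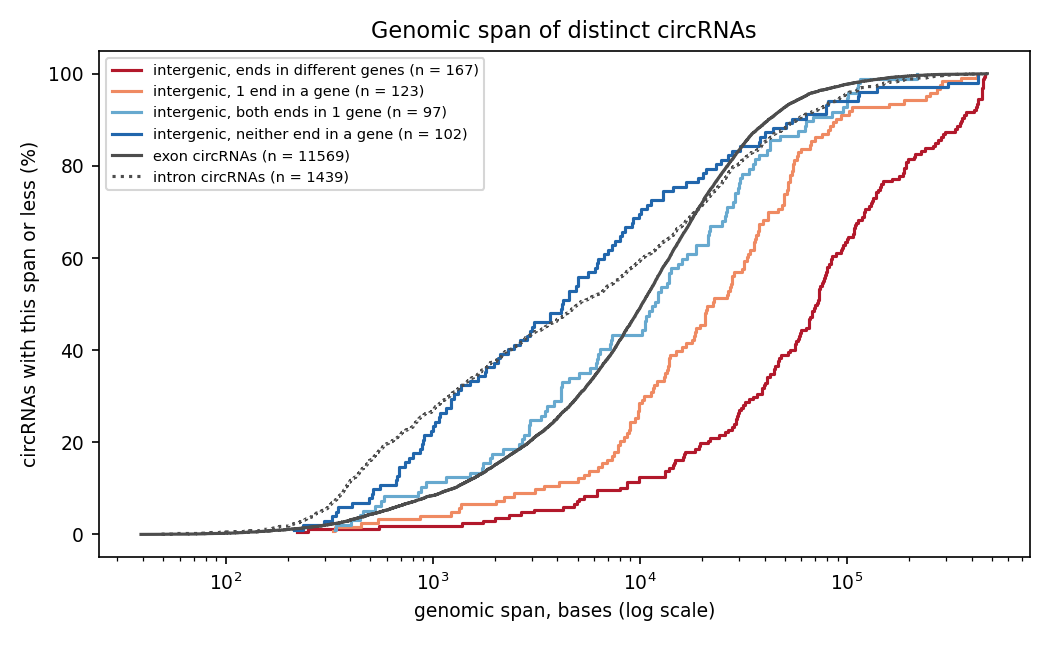
Cumulative share of distinct circRNAs by genomic span in bases (log scale), for the 4 positions of intergenic circRNAs and for exon and intron circRNAs. At the median and both quartiles the curve for ends in different genes lies to the right of all others. Its median is 71771 bases, against 10223 for exon circRNAs.

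For 201 members both sides of the junction lay in annotated exons, so that the 30 letters could be sought in all linear transcripts. They were found in 42, all of which join different genes. These 42 were 32.1% (24.2 to 40.8) of the 131 members between genes that have letters and held 61.8% of the junction reads of those 131. Of 70 members inside 1 gene with letters, 0 were found, which with this number allows a share of up to 5.13%. Among exon circRNAs 10 of 11504 (0.0869%) were found, and among intron circRNAs 3 of 90. With 10 or more reads the counts were 16 of 19 members between genes and 2 of 1881 exon circRNAs. In 40 of the 42 the letters stood in a transcript of an end gene, and in 15 an end lay in a pseudogene. By these letters alone, a read of such a junction cannot be told apart from a read of the linear transcript.

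Members whose letters were found in linear transcripts also differed from the other 89 in readouts that the search did not use. Their median was 6.5 junction reads against 2. The junction ratio compares reads across the back-splice with reads aligned linearly at the same ends, as 2 times the junction reads over that number plus the non-junction reads. Pooled over libraries, it had a median of 53.4% in the 42 and 1.54% in the 89. With 4 to 9 reads in all, where each set has 17 members, the median ratio was 45% for letters found and 4.23% for letters not found. Sharing between libraries did not separate the sets at this depth, since 2 of 17 in each were listed in 2 or more libraries. With 2 or 3 reads, which covers 69 of the 89 and 9 of the 42, the smallest listed count of 2 leaves no room for a second library. The median spans were 70477 and 73998 bases. Of the reads of all members the 42 gave 30.2%, 34.1%, 20.8% and 23.4% in order of stage.

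**Figure D3:**
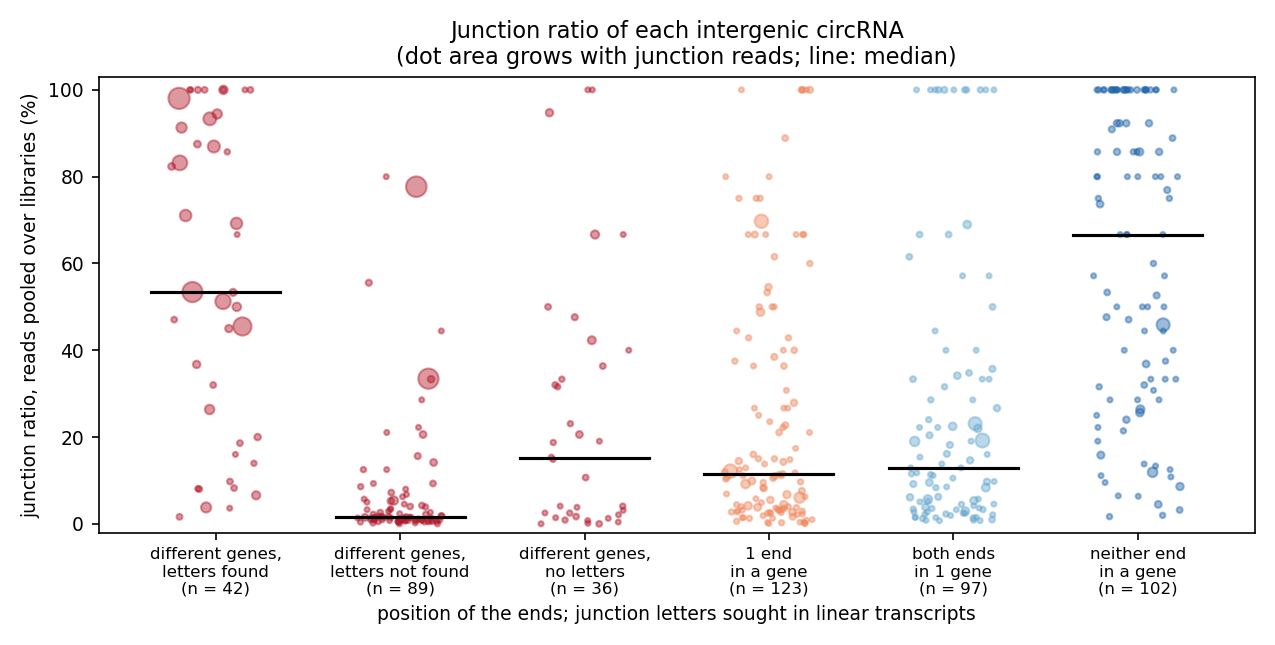
Junction ratio of each intergenic circRNA in percent, with reads pooled over libraries, by position of the ends and by whether the junction letters occur in a linear transcript. Each dot is 1 circRNA, dot area grows with junction reads and the line is the median, which is 53.4% for letters found, 1.54% for letters not found and 66.7% for members outside genes.

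The member with most reads joined Gm13767, an unprocessed pseudogene, to a coding exon of Ptprj, a receptor-type tyrosine phosphatase. It had 56 pseudoglandular and 44 canalicular junction reads and was not listed in the other 2 libraries. Only 4 non-junction reads were listed, which gives a junction ratio of 98.0%. The libraries fall into an early pair with many reads and a late pair with none listed.

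Zinc-finger genes, which form clusters of near-identical copies, came next. Zfp60 with the pseudogene Gm10046 had 33, 32, 8 and 21 junction reads in order of stage and a ratio of 77.7%. Zfp974 with Zfp780b had 24, 20, 0 and 7, and its junction letters equal a linear Zfp780b junction. An end in a gene named Zfp was found in 23 members, which together had 86, 72, 36 and 45 reads. The terminal sac library was the lowest for both named members and in the sum. That sum contains both of them, so it is no separate observation. On chromosome 2 Gm14387 was joined to Gm14440 at 2 places, with 5, 17, 5 and 0 reads over 196586 bases and with 5, 6, 6 and 3 over 188703 bases, and the letters of both occur in transcripts of several other genes of that cluster.

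Glutathione S-transferases of the mu class, which conjugate glutathione to reactive compounds, gave 2 members on chromosome 3. Gstm2 with Gstm4 had 11, 18, 24 and 20 junction reads and was listed in all 4 libraries, with a ratio of 45.5%. Gstm3 with Gstm1 had 30 reads, all of them in the alveolar library. The ends of these members lie in different genes of the same array, and 1 was spread over all stages whereas the other was listed at 1 stage.

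Several members between gene copies were listed in 1 library alone. Each of those named here has junction letters that also occur in a linear transcript of an end gene. Trbc1 with Trbc2, the constant segments of the T-cell receptor beta chain, had 90 canalicular reads, the highest count of any member in a library. Among 18 genes on a T-cell list 4 hosted circRNAs (Bcl11b, Lef1, Ptprc and Satb1), with 7, 11, 4 and 9 junction reads in order of stage. The other genes of that list had none. Circle counts do not measure linear Trbc1 transcripts, which have the same junction letters. The part of T cells in the result was not tested. Mfap1b with Mfap1a had 27 pseudoglandular reads. In the terminal sac library 17 reads each were listed for the pseudogene Gm14018 with Wdr76 and for Ddx19a with Ddx19b, RNA helicases of messenger RNA export. Krt6b with Krt6a, keratins of stratified epithelia, had 13 canalicular reads and a ratio of 100%. Of 12 genes on a stratified-epithelium list, 0 hosted a circRNA in any library. Those counts do not measure linear keratin transcripts, and the part of stratified epithelium in the result was not tested.

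Other abundant members were listed in some stages only. The junction letters of each member named here also occur in a linear transcript of an end gene. 9430037G07Rik with 9330159M07Rik, a pair of non-coding genes on chromosome 9, had 25, 14, 0 and 8 junction reads. Gm7609 with Sp100 had 16 terminal sac and 19 alveolar reads and was not listed earlier, the reverse of the Gm13767 and Ptprj member. Sirpb1a with Sirpb1b, signal-regulatory proteins of myeloid cells, had 0, 6, 11 and 4. Myh6 with Myh7, the cardiac myosin heavy chains, had 9 canalicular and 3 terminal sac reads. Circles hosted by 5 of 11 heart-muscle genes (Myocd, Nebl, Ryr2, Slc8a1 and Ttn) had 122, 46, 71 and 77 reads in order of stage. They do not measure linear Myh7 transcripts, where the letters of the Myh6 and Myh7 member occur. The part of heart muscle in the result was not tested.

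**Figure D4:**
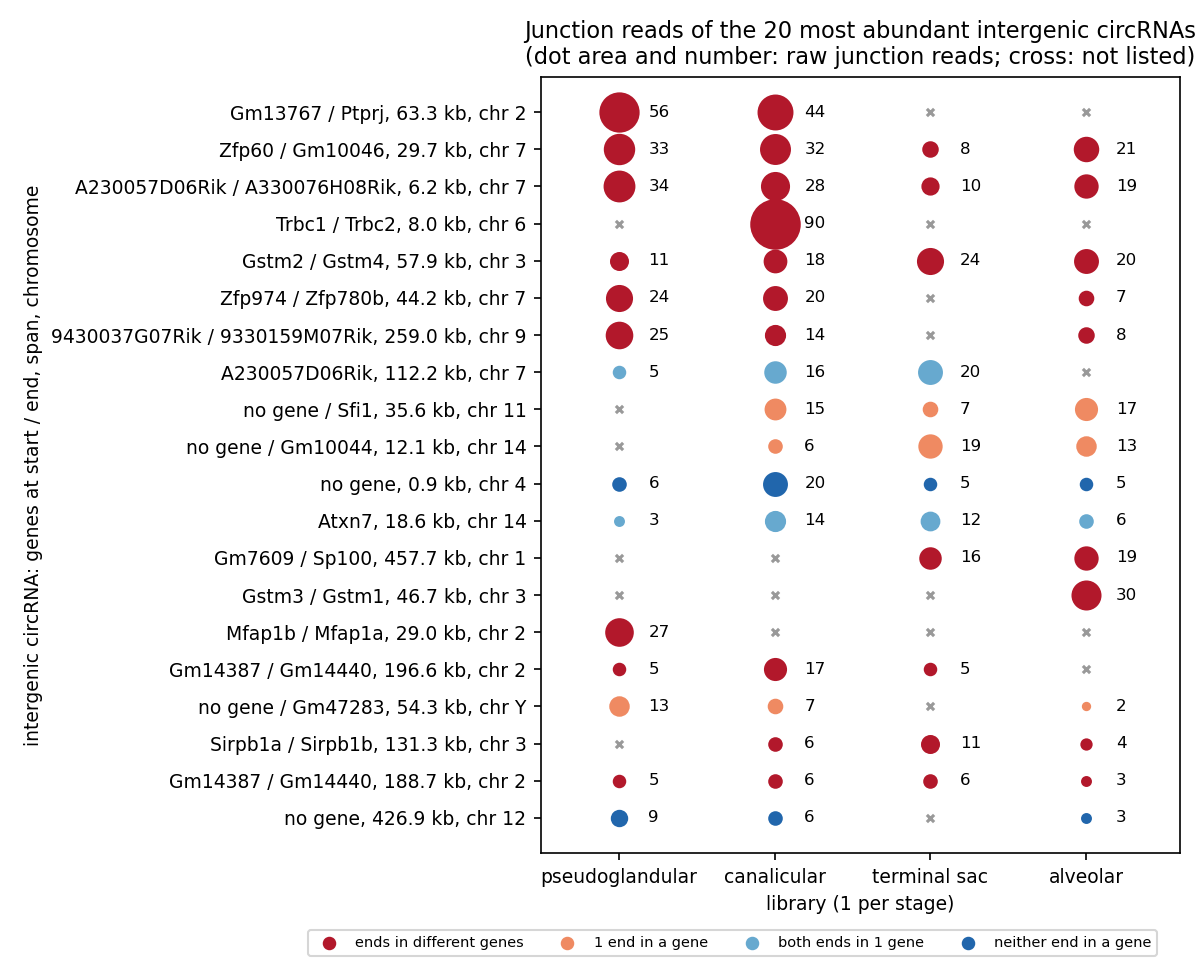
Raw junction reads of the 20 most abundant intergenic circRNAs (rows, with the genes at their ends) in the 4 libraries (columns). Dot area and the number beside it give the reads, a cross marks a circRNA that is not listed and colour gives the position of the ends. Gm13767 with Ptprj is listed in the 2 early libraries, Trbc1 with Trbc2 in the canalicular library and Gstm3 with Gstm1 in the alveolar library.

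The long non-coding RNA A230057D06Rik on chromosome 7 held or touched several members whose junction letters occur in no linear transcript. It lies in a region with miRNA genes of the Mir344 family. The circle with its neighbour A330076H08Rik spans 6183 bases and had 34, 28, 10 and 19 junction reads against 362 non-junction reads in all, a ratio of 33.5%. Another 5 circles share the start at position 61813262, with 14, 22, 29 and 9 reads in order of stage. Of these the circle ending at 61925420 had 5, 16, 20 and 0 reads, and the one ending at 61928291 had 9, 3, 0 and 2. The first 2 libraries thus led for the circle of both genes, whereas the circles from the shared start had most reads in the terminal sac library. In all, 9 members had an end in either gene, with 179 reads. These sums over circles were chosen after their values were seen.

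Of the 97 members inside 1 gene, 72 lay in protein-coding genes and 16 in long intergenic non-coding RNAs, the latter with 100 of 428 reads. Atxn7, a subunit of a histone acetyltransferase complex, gave a circle at chr14:13995007-14013655 between exon boundaries with 3, 14, 12 and 6 junction reads. 2900026A02Rik gave 3, 7, 7 and 0. The lowest junction ratio among members with 10 or more reads was 2.93%, in Clasp2, which binds growing microtubule ends, with 2, 0, 5 and 3 reads against 662 non-junction reads. Genes with an end of a member also hosted other circRNAs in the deposited lists for 92 of 167 members between genes, 53 of 123 with 1 end in a gene and 30 of 97 inside 1 gene. Ends were shared with another circRNA by 145 members (29.7%).

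For the 123 members with 1 end in a gene, the other end lay downstream of it in 85 and upstream in 38. The distance to the gene had a median of 3990 bases downstream and 4042 upstream. Sfi1, whose protein binds centrin at centrosomes, had 0, 15, 7 and 17 junction reads for a circle reaching 7907 bases past the gene. Gm10044 had 0, 6, 19 and 13, with an end 4604 bases downstream. Gm47283 on chromosome Y had 13, 7, 0 and 2, with an end 45596 bases upstream. Of its canalicular reads, 1 or more are also listed under another circle with the same start. Neither Sfi1 nor Gm10044 was listed in the pseudoglandular library, whereas the chromosome Y circle had its highest count there. Low junction ratios were found for Ccdc141 (4.16%, 6, 0, 2 and 2 reads) and for Pank1, a pantothenate kinase (4.42%, 2, 8, 0 and 0 reads).

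Members with neither end in a gene were short, and over all their library entries the junction ratio was high. The median deposited ratio was 64.1%, against 8.05% for ends in different genes, 11.25% for 1 end in a gene and 11.65% for ends in 1 gene. At 5 or more reads it was 50.1% over 16 entries, slightly under the 53.4% over 59 entries for ends in different genes, and above the 11.65% over 24 for 1 end in a gene and the 20.3% over 25 for ends in 1 gene. In 34 of 128 entries the non-junction count was blank and was read as 0. The nearest gene was at a median of 9454 bases and the nearest protein-coding gene at 31721, with 52 of 102 members within 10 kb of a gene and 5 over 100 kb away. A whole gene lay inside 21 of them. The most abundant was chr4:142410457-142411344, a circle of 888 bases inside the RefSeq gene Gm42339, with 6, 20, 5 and 5 junction reads and ratios of 24.5%, 61.5%, 33.3% and 76.9%. A span of 426932 bases on chromosome 12 had 9, 6, 0 and 3 reads, and chr13:72575945-72596886, inside the RefSeq gene Gm38580, had 2, 3, 2 and 3. The canalicular library thus stood out for the first of these, whereas the last was at 2 or 3 reads throughout.

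Chromosome 7 held 42 members and 409 of 2575 member reads (15.9%). Per 100 listed circRNAs there were 5.99 members on chromosome 7, 5.68 on chromosome 13 and 5.62 on chromosome X, and the fewest, 1.98, on chromosome 4. Of 17 circRNAs on chromosome Y 3 were members, and of 4 on the mitochondrial genome all 4. Members on the mitochondrial genome had between 2 and 4 junction reads each but up to 87622 non-junction reads, for the span from mt-Ty to mt-Co1. A member from the embryonic globin gene Hba-x to Hba-a1, the adult alpha globin gene, had 2 pseudoglandular reads and 142230 non-junction reads. The ratio pooled over all members was 0.635%, 8.60%, 1.13% and 4.19% in order of stage. Without the mitochondrial members it was 4.28% in the terminal sac library, and without them and the globin member 3.36% in the pseudoglandular library. The alveolar value was 4.70% without them, and the canalicular library listed none of either. The median ratio over members was 11.9%, 14.8%, 21.1% and 16.1%, against 1.9% to 2.4% for exon circRNAs and 7.8% to 12.9% for intron circRNAs.

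Sharing between stages was limited. A single library listed 424 of the 489 members, 38 members were in 2 libraries, 20 in 3 and 7 in 4. Those in 2 or more were 65, or 13.3% (10.4 to 16.6), against 28.3% of exon and 8.06% of intron circRNAs. At 5 to 9 reads in all the share was 42.6% of 68 members, against 60.3% for exon and 41.6% for intron circRNAs, and at 10 or more reads 80.5% of 41, against 95.4% and 91.3%. The terminal sac library, which has most listed reads, alone held 143 members, the pseudoglandular 104, the canalicular 91 and the alveolar 86. The 7 members of all 4 libraries were Zfp60 with Gm10046, A230057D06Rik with A330076H08Rik, Gstm2 with Gstm4, Gm14387 with Gm14440 over 188703 bases, Atxn7, and the circles outside genes on chromosomes 4 and 13. They held 359 reads.

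Single members were compared between libraries where the pair held 10 or more reads. A member was called higher or lower at a ratio of shares of 2-fold or more with an exact conditional binomial interval that excluded 1. Where a library did not list a circRNA, 3 reads stood in for its count there. Folds written as "at least" hold for scaling by listed reads, and only if no more than 3 reads went unlisted. Filters before deposit are not given, so this could not be checked. Such a fold is not the lower end of its interval. Scaling by non-junction reads of circRNAs listed in all 4 changed these folds in both directions. For terminal sac against canalicular, Trbc1 with Trbc2 went from 34.7 to 22.4 and Ddx19a with Ddx19b from 4.89 to 7.57. Other scalings shifted all log2 ratios, the largest shift being 0.63 for terminal sac against canalicular with non-junction reads of circRNAs listed in all 4. The shift was -0.43 for the alveolar against the terminal sac library and 0.29 for the alveolar against the pseudoglandular library with that scaling.

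Between the canalicular and the pseudoglandular library 5 of 22 members were higher and 2 lower, where 8.16% of all 1017 circRNAs compared were higher and 9.83% lower. The member median was 0.22 on the log2 scale, against 0.07 for all. Trbc1 with Trbc2 was at least 25.0-fold higher and Sfi1 at least 4.16-fold. Atxn7 was 3.88-fold higher (1.08 to 21.1) and the circle on chromosome 4 2.77-fold (1.07 to 8.44). Gm14387 with Gm14440 over 196586 bases was 2.83-fold higher (1.002 to 9.81), a call lost with median-of-ratios scaling. Mfap1b with Mfap1a was at least 10.8-fold lower. 9430037G07Rik with 9330159M07Rik was 2.15-fold lower (1.07 to 4.46), a call lost when all non-junction reads set the scale.

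When the terminal sac library was set against the canalicular, 4 of 24 members were higher and 10 lower, against 8.94% and 11.2% of 1208 circRNAs. The median was -0.87 on the log2 scale for members and -0.02 for all. With scaling by non-junction reads of circRNAs listed in all 4, the split of members became 6 higher and 5 lower. Trbc1 with Trbc2 was at least 34.7-fold lower, Gm13767 with Ptprj at least 17.0-fold and Zfp974 with Zfp780b at least 7.72-fold. Zfp60 with Gm10046 was 4.63-fold lower (2.09 to 11.6), the circle on chromosome 4 also 4.63-fold (1.69 to 15.8), and A230057D06Rik with A330076H08Rik 3.24-fold (1.53 to 7.48). The last of these calls was lost with that scaling, as was that of Krt6b with Krt6a, at least 5.02-fold lower. Gm14018 with Wdr76 and Ddx19a with Ddx19b were each at least 4.89-fold higher, Gm7609 with Sp100 at least 4.60-fold, and Gm10044 2.73-fold (1.05 to 8.36). Of the 10 lower, 9 joined different genes and 6 had letters found in linear transcripts, where 16 and 13 of the 24 compared did.

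Between the alveolar and the terminal sac library 4 of 14 members were higher and 3 lower, against 10.5% and 11.0% of 1123 circRNAs. The median was -0.05 on the log2 scale for members and -0.23 for all. Gstm3 with Gstm1 was at least 12.8-fold higher and Zfp60 with Gm10046 3.35-fold (1.43 to 8.75). Sfi1 was 3.10-fold higher (1.22 to 8.84) and A230057D06Rik with A330076H08Rik 2.42-fold (1.07 to 5.84), and both calls were lost with scaling by non-junction reads of circRNAs listed in all 4. The A230057D06Rik circle of 112159 bases was at least 5.22-fold lower. Gm14018 with Wdr76 and Ddx19a with Ddx19b were at least 4.44-fold lower, each with 17 reads in 1 library and no listing in the other.

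From the earliest to the latest library, 4 of 16 members were higher in the alveolar library and 6 lower, against 12.2% and 17.4% of 933 circRNAs. The median was -0.87 on the log2 scale for members and -0.12 for all. Gstm3 with Gstm1 was at least 9.17-fold higher, Gm7609 with Sp100 at least 5.81-fold, Sfi1 at least 5.20-fold and Gm10044 at least 3.97-fold. Gm13767 with Ptprj was at least 20.4-fold lower and Mfap1b with Mfap1a at least 9.81-fold. The chromosome Y circle at Gm47283 was 7.09-fold lower (1.60 to 64.7), Zfp974 with Zfp780b 3.74-fold (1.56 to 10.3) and 9430037G07Rik with 9330159M07Rik 3.41-fold (1.49 to 8.74). The sex of the animals was not among the sample details used here. For the chromosome Y circle, the sex make-up of the libraries cannot be told apart from stage. A230057D06Rik ending at 61928291 was 4.91-fold lower (1.02 to 46.7), and between 4.0-fold and 4.37-fold lower with the 3 other scalings, where the interval included 1 and the call was lost. This comparison shares its libraries with the steps above, so its calls add no independent evidence.

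Few intergenic circRNAs lay at the short lists of genes that mark lung cell types. The same share was not counted for exon or intron circRNAs, so these counts do not show that members avoid such genes. Of 9 gene lists, those of alveolar epithelium, of mesenchyme with smooth muscle and matrix, and of the cell cycle had 0 of 489 members with an end in, or nearest to, a listed gene. Lung epithelial transcription factors had 4, among them Foxp2 with Mdfic (6 terminal sac reads over 332616 bases) and a pair near Nkx2-1, a transcription factor of lung epithelium, with 2 reads each. The endothelial list had 2, both at Emcn (endomucin), with 6 and 2 reads. Heart and striated muscle had 1, the Myh6 and Myh7 member. Immune and erythroid cells had the Hba-x and Hba-a1 member, and imprinted and long non-coding RNA genes had 1 near Rian with 2 reads. Widely described circRNA hosts had 3, at Tulp4 and Fat3, with 2 or 3 reads each. All list members other than Myh6 with Myh7 had 6 reads or fewer, too few to compare stages.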

How the data were processed

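The authors deposited 1 list of circRNAs per library, in the column layout of the caller CIRI, per the file headers. The submitters' processing notes name the build mm10 and BWA, HISAT2 2.0.5, HTSeq, StringTie and cutadapt, without their roles. Per the file headers, reads on and off the junction were deposited as raw counts, and the junction ratio as a fraction. Recomputing the ratio gave 0 mismatches over 0.001, and a blank non-junction count was read as 0. Other filters applied before deposit are not given in the sources used here.

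From these, ends were placed on GENCODE M21 genes (build GRCm38) and RefSeq genes in Python 3.11.15 (scipy 1.17.1, pandas 2.3.3, numpy 2.4.6, and matplotlib 3.10.9 for the plots). Junction letters were 15 exonic bases from each side, sought without mismatch in all M21 transcripts. Depth was 25983 to 36156 listed junction reads per library, and shares carry Clopper-Pearson intervals. Members, lists and comparisons were chosen with earlier results of these data known. Named circRNAs are the 20 with most reads, the leading 6 calls in each direction, those in all 4 libraries, the extremes of span (3 each, with 5 or more reads) and of ratio (5 each, with 10 or more), and gene-list members. The mitochondrial and globin members and the marker lists of T cells and stratified epithelium were chosen after values were seen. In the canalicular library 6 member reads are listed under 2 circRNAs. Splice dinucleotides and flanks outside exons were not analysed here.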

Additional observations from a re-analysis of the deposited data

How the results depend on the processing

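No paired analysis was possible because each stage has 1 library. The shares per library, the pooled ratio, the overall median span, the count inside 1 gene, sharing between libraries and the calls were recomputed under alternatives, 6 of them chosen after seeing the data. Class spans, chromosome counts and the share of letters found were not. Merging junctions within 5 bases left all 4 shares of listed circRNAs and of reads inside their intervals. The median span was 22675 bases with 5 or more reads and 29675 weighted by reads. With 3 or more reads the terminal sac share was 2.76% of circRNAs and 1.63% of reads, and the alveolar share 1.56% of reads. Leaving out circRNAs with few alignment patterns or whose ends repeat 6 or more bases directly, the share of reads was 2.59% in the canalicular and 2.05% in the alveolar library. Without members found in a linear transcript it was 1.73%, 1.56%, 1.54% and 1.37% in order of stage, an alternative added later. The ratio pooled over members became 11.9%, 14.8%, 21.1% and 16.1% as a median, 43.2%, 47.1%, 48.8% and 39.8% with 10 or more reads, and without mitochondrial members 0.708% at the pseudoglandular, 4.28% at the terminal sac and 4.70% at the alveolar stage. At the pseudoglandular stage it was 2.15% without the globin member and 3.36% without both kinds; the terminal sac and alveolar values without both equal those without mitochondrial members. With 5 or more reads 24 members had both ends in 1 gene, and 72 did with protein-coding genes only.

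For the calls, higher and lower in the canalicular against the pseudoglandular library were 5 and 2, and became 3 and 2 with 20 or more reads, 3 and 1 for circRNAs listed in both libraries, 7 and 1 with non-junction scaling, and 3 and 0 without members found in linear transcripts. Between terminal sac and canalicular, 4 and 10 became 1 and 7, 1 and 4, 4 and 10, and 1 and 4 in the same settings, and 6 and 5 with non-junction reads of circRNAs listed in all 4. Between alveolar and terminal sac, 4 and 3 became 4 and 1 with 20 or more reads, 3 and 0 for circRNAs listed in both, 3 and 1 without members found in linear transcripts, and 2 and 3 with non-junction reads of circRNAs listed in all 4. Between alveolar and pseudoglandular, 4 and 6 became 1 and 4, 0 and 4, and 2 and 2 in the first 3 of these settings. Most of the settings with fewer calls test fewer members by their construction. With counts of 2 or 3 for most members, absence from a list is not absence of the junction. The alternative by splice dinucleotides was not run.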
